A study of Homo sapiens with 60 samples.

Results

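The comparison described here sets a high dose of Cimicifugae Rhizoma against a low dose of the same extract in SW1783 cells. Cimicifugae Rhizoma is the rhizome of Actaea (Cimicifuga) species, a drug of East Asian herbal medicine, given here as a 70% ethanol extract. SW1783 is an established human astrocytoma line, grown in Leibovitz's L-15, a medium that supplies galactose in place of glucose. Members were chosen by their labels alone: the 3 libraries titled high dose (500 µg/mL, 24 h) and the 3 titled low dose (20 µg/mL, 24 h), both of set 12, 6 of the 60 libraries of the series. The series profiles cultured cells treated with extracts of herbs and herbal prescriptions. For context, 3 libraries of the medium dose (100 µg/mL) and 3 each of high-dose, medium-dose and low-dose Citri Unshius Pericarpium (500, 100 and 20 µg/mL), all of set 12, and 3 vehicle libraries (DMSO, 0.1% per the sample labels and 2% per the series text) entered the same fit. All groups are the same unmodified line. Whether replicates came from separate cultures is not stated, so p-values measure the spread between these libraries, which may be technical. The vehicle libraries carry another set label, so for any value against the vehicle, set and treatment cannot be told apart.

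As background, cells answer reactive plant compounds through several stress pathways. NRF2, held back by KEAP1 until that sensor is modified, switches on haem oxygenase, glutathione synthesis and NADPH-making enzymes at antioxidant response elements. The aryl hydrocarbon receptor (AhR) binds flat aromatic ligands and induces cytochrome P450 genes at xenobiotic response elements. ATF4 is translated more when the kinases of the integrated stress response are active and induces amino acid uptake and synthesis, while the unfolded protein response of the endoplasmic reticulum (ER) raises ER chaperones.

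The 3 high-dose libraries held 19614436 to 21167567 counts and the 3 low-dose libraries 23568954 to 25320643, so depth moved with dose. Counts thinned to one depth gave 1639 calls, 1546 of them shared with the 1747 below. Replicate 1 of the low dose stood apart from its group. The mitochondrial genome made up 5.18% of its counts, against 6.51% and 6.96% in the other low-dose libraries and 6.43 to 6.59% at the high dose. Per gene it differed from its replicates by chi-square values of 7.46 and 11.6, against 3.04 between the other two. Of the cell type markers, the line held VIM, CD44 and GJA1, but GFAP reached at most 0.189 CPM in high-dose and 0.206 CPM in low-dose libraries, and AQP4 and FABP7 were at 0.

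Of 16626 genes tested with edgeR, 1747 (10.5%) passed an adjusted p of 0.05 between high and low dose. There were 803 higher (4.83%) and 944 lower (5.68%) at the high dose. Most changes were small: the median size among called genes was 0.23 on the log2 scale, a fold of 1.17. Only 35 called genes changed more than 2-fold, 22 higher and 13 lower, and 143 more than 1.5-fold. The median over all tested genes was 0.003. Scaling by library totals alone gave 997 higher and 744 lower in place of 803 and 944, so the split by direction rests on the scaling. Without replicate 1 of the low dose 1205 genes passed, 514 higher and 691 lower. Without replicate 2 of the high dose 1100 passed. In a fit of all 57 libraries with replicates in the series 109 passed, and without 2 libraries of other extracts that stand apart from their replicates 1843 passed.

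**Figure D1:**
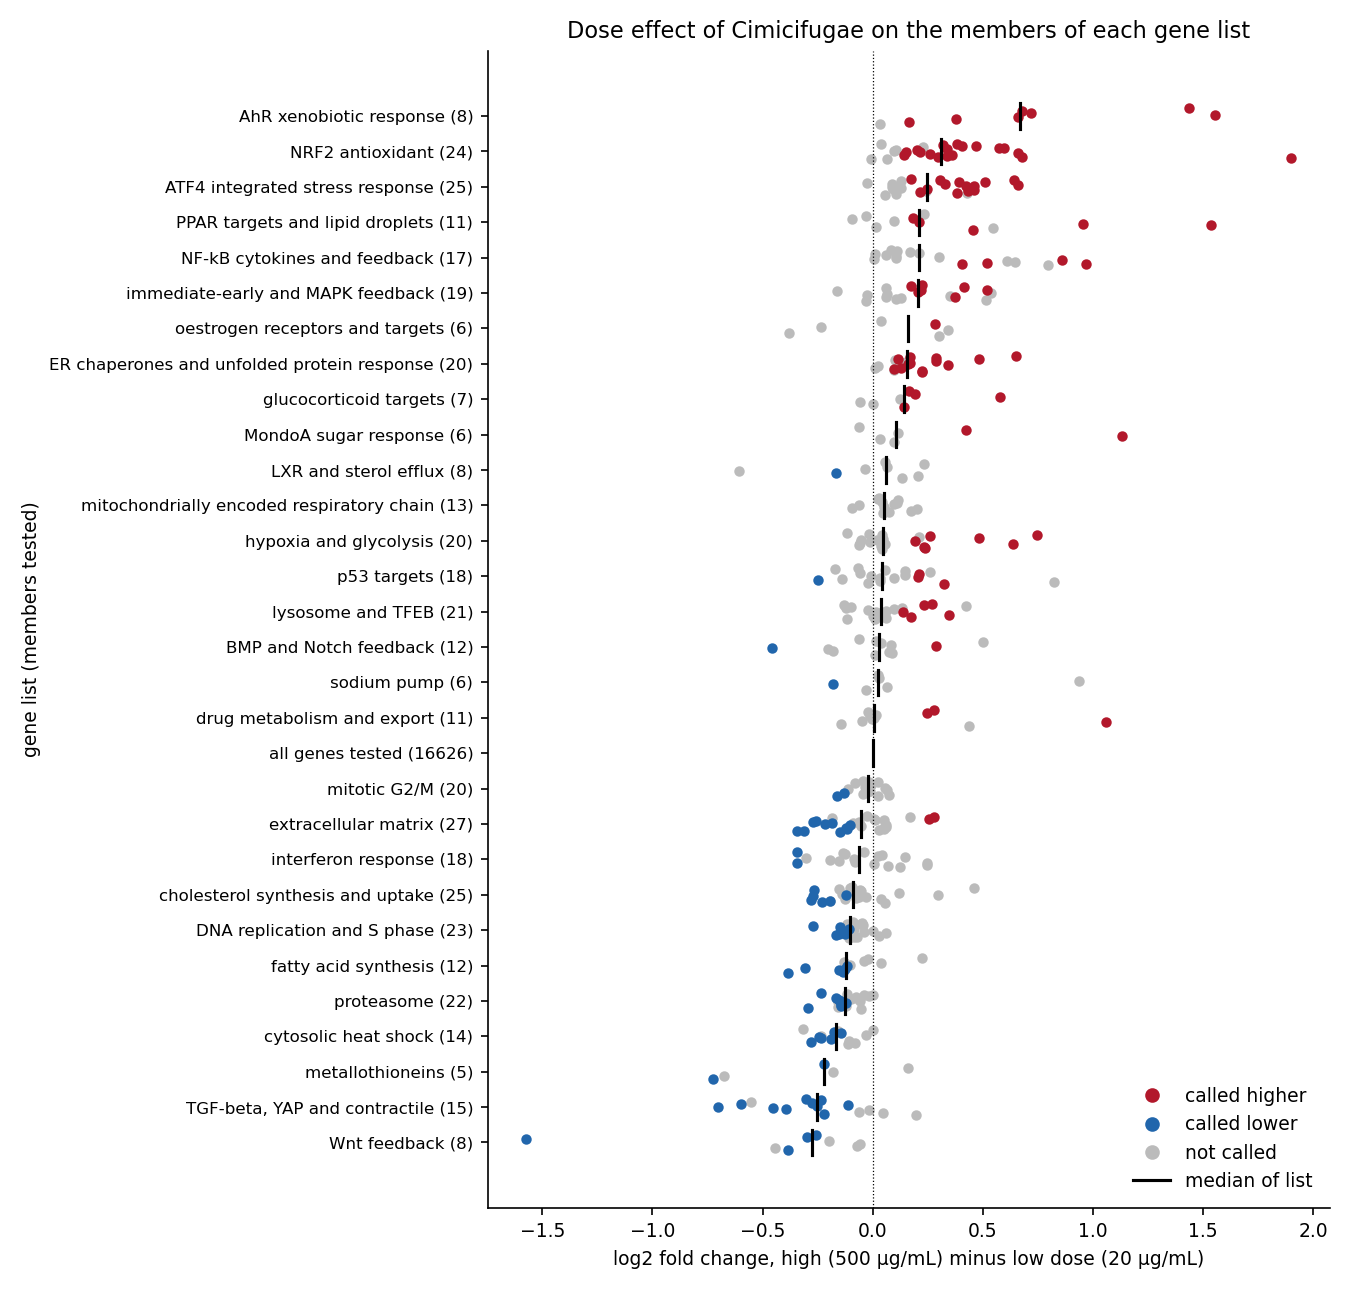
Each point is 1 tested gene of a list, placed by its log2 fold change, high (500 µg/mL) minus low dose (20 µg/mL); red points were called higher, blue lower, grey neither, and a black bar marks each list's median. The AhR, NRF2 and ATF4 lists have the highest medians (0.67, 0.31 and 0.25), and the Wnt feedback and contractile lists the lowest (-0.28 and -0.25).

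HMOX1, the inducible haem oxygenase that breaks haem down to biliverdin, iron and carbon monoxide, had the smallest p of all genes and the largest rise among the genes named by rule (ENSG00000100292, chr22:35380361-35394214, plus strand, GRCh38). It had 489, 476 and 515 CPM in the high-dose libraries and 127, 127 and 142 CPM in the low-dose libraries, and no library of one dose came near the other. The fold was 3.74 (log2 1.90 ± 0.05, SE, adjusted p = 1.8e-17). Across the series of doses HMOX1 averaged 59.0 ± 1.7 CPM in the vehicle, 132 ± 8.5 at 20, 273 ± 20.2 at 100 and 493 ± 19.9 at 500 µg/mL (SD, n = 3 each). Each step up the doses lay outside the spread of the libraries before it.

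Genes of the NRF2 list rose. Of 24 tested, 18 were called higher and none lower, against 4.83% and 5.68% of all genes, and the median was 0.31. Without replicate 1 of the low dose 17 were higher. NQO1, the quinone reductase that both NRF2 and AhR induce, had 281, 286 and 290.3 CPM at the high dose, against 179.6, 182 and 175 CPM at the low dose (0.68 ± 0.04, adjusted p = 4.3e-11). SLC7A11, the cystine importer that feeds glutathione synthesis, had 201, 212 and 195 CPM at the high dose and 135, 128 and 120.2 CPM at the low dose (0.66 ± 0.05, adjusted p = 7.1e-09). In both genes the doses were well apart, and SLC7A11 at the low dose was near its vehicle mean of 137 CPM. TXNRD1, the selenium-containing thioredoxin reductase, had 364, 338 and 342 CPM in high-dose libraries and 291, 263 and 260.2 CPM in low-dose libraries (0.36 ± 0.04, adjusted p = 3.2e-06). FTL, the light chain of the iron store ferritin, had 2246, 2207 and 2438 CPM at the high dose and 1352, 1601 and 1683 CPM at the low dose (0.57 ± 0.06, adjusted p = 3.4e-07); its many processed pseudogenes make its count uncertain. Other called members were chosen after their values were seen: GCLM (0.34 ± 0.07) and GCLC (0.30 ± 0.05), the subunits of the rate-limiting enzyme of glutathione synthesis, and PGD (0.21 ± 0.03) and TKT (0.20 ± 0.03) of the pentose phosphate pathway. These rose by small amounts, with every high-dose library above every low-dose library.

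The bases just before the start of 2 of these genes are shown because they hold letters of the antioxidant response element, TGACNNNGC on either strand (capitals). The windows come from RefSeq on GRCh38.p14 and give the 150 bases before an annotated start.
TXNRD1 (chr12:104215629-104215778, plus strand): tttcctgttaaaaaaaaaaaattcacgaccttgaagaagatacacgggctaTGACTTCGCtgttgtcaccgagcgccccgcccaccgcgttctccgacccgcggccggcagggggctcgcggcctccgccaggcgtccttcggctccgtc
GCLM (chr1:93909431-93909580, minus strand): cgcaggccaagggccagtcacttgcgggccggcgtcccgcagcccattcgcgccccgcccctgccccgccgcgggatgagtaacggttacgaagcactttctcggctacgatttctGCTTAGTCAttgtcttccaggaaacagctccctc
In TXNRD1 the match begins 99 bases before the start, and in GCLM 34 bases before it on the opposite strand. Over 300-base windows, from 250 bases before to 50 after each start, 4 of the 12 called NRF2 members with a window held the motif, GCLM, TXNRD1, PGD and PIR. The same letters stood in 19.2% of the 11091 tested genes with a window.

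Genes of the AhR list also rose. Of 8 tested, 7 were called higher and none lower, against 4.83% and 5.68% of all genes, with a median of 0.67. NQO1 counts here and in the NRF2 list, as SLC7A11 does in the NRF2 and ATF4 lists, and 6 AhR genes were higher without replicate 1 of the low dose. CYP1B1, a cytochrome P450 that oxidises steroids and aromatic hydrocarbons (ENSG00000138061, chr2:38066973-38109902, minus strand), had 319.6, 341 and 336 CPM at the high dose and 208, 194 and 203 CPM at the low dose (0.72 ± 0.03, adjusted p = 5.3e-13). Its vehicle mean was 166 CPM and its medium-dose mean 272 CPM, so its level rose with each dose. TIPARP, an ADP-ribosyltransferase that represses AhR, had 68.7, 72.8 and 64.3 CPM at the high dose, against 44.7, 42.9 and 42.5 CPM at the low dose (0.66 ± 0.05, adjusted p = 1.3e-09). AHRR, the AhR repressor, had 68.7, 70.7 and 66.8 CPM in high-dose libraries and 51.9, 54.4 and 52.4 CPM in low-dose libraries (0.38 ± 0.05, adjusted p = 5.2e-06). Both feedback genes were apart between doses without overlap.

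CYP1A1, the classical AhR target, rose more steeply but from very little RNA. It had 3.78, 2.31 and 2.78 CPM in high-dose and 1.13, 0.987 and 0.901 CPM in low-dose libraries (1.55 ± 0.28, adjusted p = 0.00057). ALDH3A1, an aldehyde dehydrogenase, had 2.01, 2.81 and 3.16 CPM at the high dose and 1.17, 0.905 and 0.858 CPM at the low dose (1.43 ± 0.23, adjusted p = 0.00018). At these levels the 3 high-dose libraries of each gene spread widely, yet all lay above the low-dose libraries. The 150 bases before the start of CYP1A1 are shown for the core of the xenobiotic response element, GCGTG (capitals), which lies 57 bases before the start.
CYP1A1 (chr15:74725529-74725678, minus strand): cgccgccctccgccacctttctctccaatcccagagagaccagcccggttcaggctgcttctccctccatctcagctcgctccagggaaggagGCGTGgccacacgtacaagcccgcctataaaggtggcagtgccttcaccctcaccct
In the 300-base windows 4 of 5 called members held these 5 letters, as did 57.5% of all tested genes with a window.

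**Figure D2:**
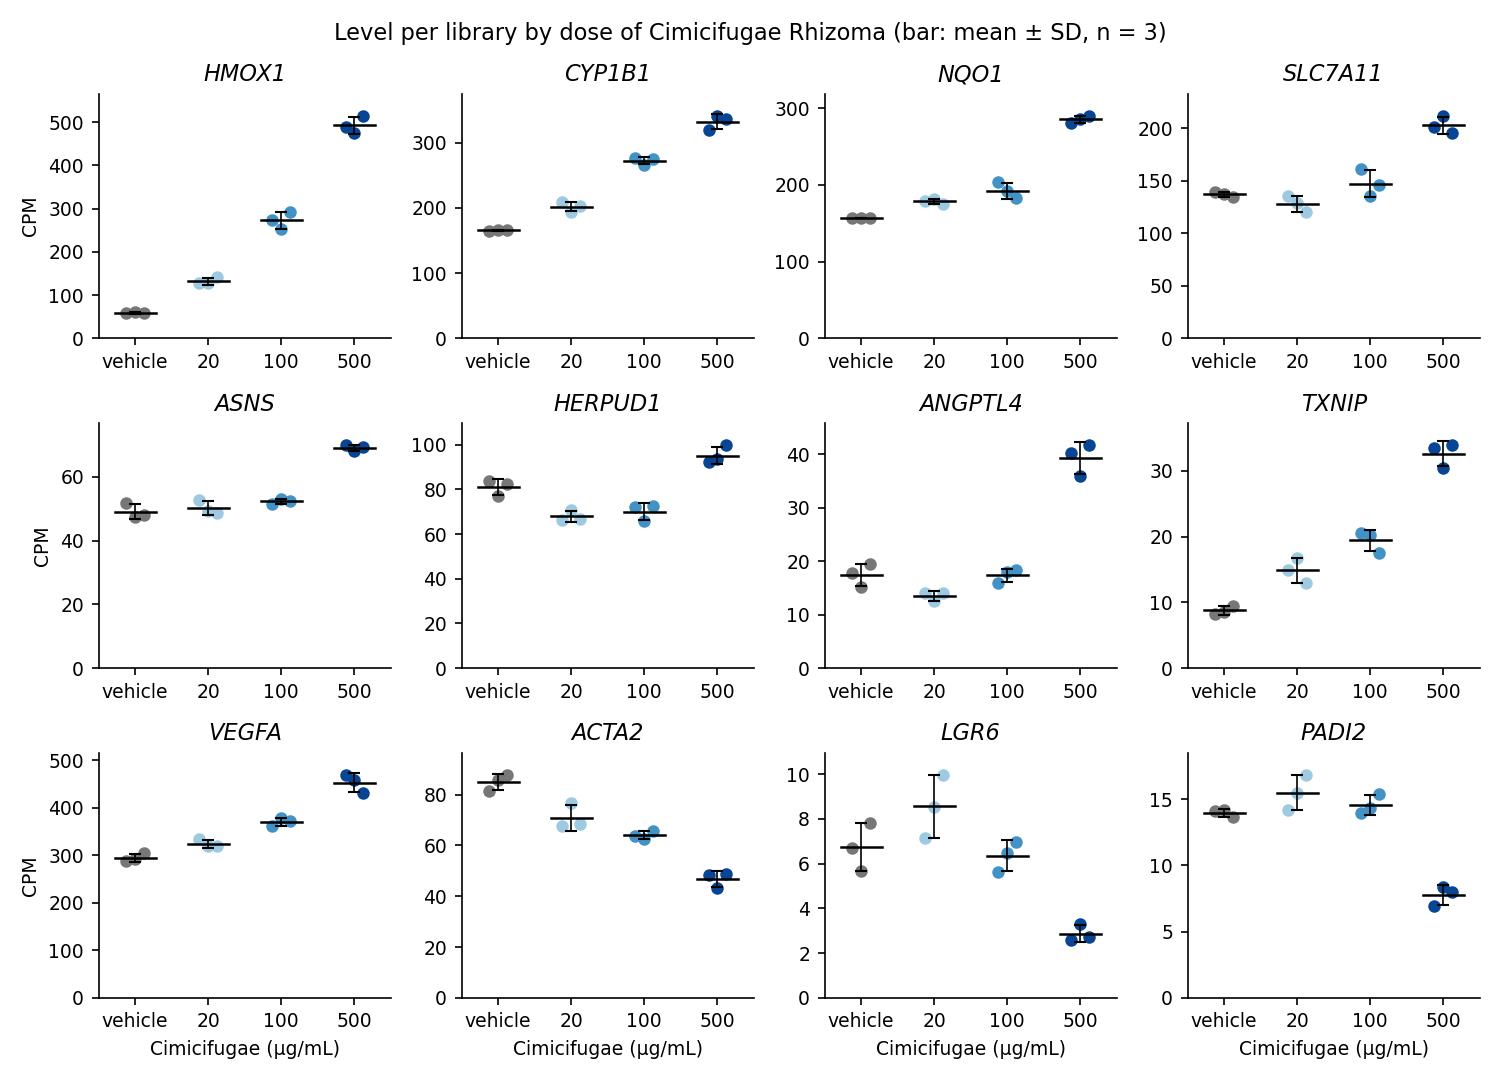
CPM per library (points) in 4 groups of 3 libraries, from the vehicle to 20, 100 and 500 µg/mL Cimicifugae, with the mean and SD as black lines, for 12 genes named in the text; each panel starts at 0. HMOX1 and CYP1B1 step up at every dose, ASNS, HERPUD1 and ANGPTL4 are highest at 500 µg/mL, and LGR6 and PADI2 are lowest at 500 µg/mL.

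The ATF4 list held 14 genes called higher and none lower of 25 tested (median 0.25), against 4.83% and 5.68% of all genes. Without replicate 1 of the low dose 13 were higher. ASNS, asparagine synthetase, had 69.8, 67.9 and 69.5 CPM at the high dose and 52.7, 49.1 and 48.6 CPM at the low dose (0.46 ± 0.04, adjusted p = 1.5e-07). DDIT4, the mTORC1 inhibitor also called REDD1, had 129, 123 and 132 CPM at the high dose, against 90.6, 89.6 and 89.3 CPM at the low dose (0.51 ± 0.05, adjusted p = 1.6e-07). SLC7A5, the leucine transporter, had 214, 213 and 216 CPM at the high dose and 161, 179 and 172 CPM at the low dose (0.33 ± 0.04, adjusted p = 8e-06). In all 3 genes the high-dose libraries lay above every low-dose library. Their vehicle means were 49.1, 82.4 and 171 CPM, all below the high-dose level. SESN2, a leucine sensor, rose by less (0.39 ± 0.06, adjusted p = 6.4e-05). Members named after their values were seen include DDIT3 (0.38 ± 0.07, adjusted p = 0.0006), which encodes the death-promoting factor CHOP, and its target TRIB3 (0.43 ± 0.06, adjusted p = 7.3e-05). GDF15, a stress cytokine, was also chosen that way and had 6.82, 7.59 and 6.98 CPM at the high dose, against 4.24, 4.77 and 4.68 CPM at the low dose (0.64 ± 0.11, adjusted p = 0.00053).

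ER chaperones and unfolded protein genes rose by small amounts. Of 20 tested, 13 were called higher and none lower (median 0.16), against 4.83% and 5.68% of all genes. Without replicate 1 of the low dose 11 were higher. HSPA5, the master chaperone BiP (ENSG00000044574, chr9:125234853-125241330, minus strand), had 4349, 4444 and 4337 CPM at the high dose and 3813, 3684 and 3758 CPM at the low dose (0.22 ± 0.03, adjusted p = 5.5e-05). That is a fold of only 1.17, but the libraries of each dose agreed closely and did not overlap. HERPUD1, which takes misfolded proteins to degradation, had 92.1, 93.6 and 99.6 CPM at the high dose, against 66.4, 70.7 and 66.8 CPM at the low dose (0.48 ± 0.05, adjusted p = 7.8e-07). Its vehicle mean was 81.0 CPM, between the doses. DNAJB9 (0.34 ± 0.06) and HYOU1 (0.17 ± 0.03), co-chaperones of BiP, and MANF (0.29 ± 0.05), a secreted ER protein, were the other members named by rule, with adjusted p-values of 0.00021, 0.0012 and 0.00021.

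Windows of 3 genes are shown because they hold the motifs through which ATF4 and the unfolded protein factors are known to act. The ER stress response element, a motif added after the data were seen, is CCAAT and CCACG with 9 bases between them, and the ATF4 composite element is TGATGNAAN. Capitals mark the match.
HSPA5 (chr9:125241344-125241493, minus strand): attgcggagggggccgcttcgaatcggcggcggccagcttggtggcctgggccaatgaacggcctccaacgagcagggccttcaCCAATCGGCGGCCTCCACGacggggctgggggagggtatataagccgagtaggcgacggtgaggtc
XBP1 (chr22:28800570-28800719, minus strand): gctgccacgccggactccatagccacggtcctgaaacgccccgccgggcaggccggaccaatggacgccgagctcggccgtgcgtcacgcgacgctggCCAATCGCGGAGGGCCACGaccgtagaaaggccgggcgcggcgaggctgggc
ASNS (chr7:97872409-97872558, minus strand): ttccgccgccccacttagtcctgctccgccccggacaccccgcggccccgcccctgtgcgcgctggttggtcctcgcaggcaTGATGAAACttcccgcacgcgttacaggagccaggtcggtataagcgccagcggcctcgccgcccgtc
The matches begin 66, 52 and 68 bases before the starts. Of 18 tested ER members with a window 7 held the ER element, HSPA5, XBP1, HSP90B1, PDIA6, CALR, CANX and CRELD2, against 0.144% of all tested genes. Of these 7, only HSPA5 and XBP1 (0.23 ± 0.07, adjusted p = 0.027, chosen after its values were seen) were called between doses. The ATF4 element stood in 6 of 20 tested ATF4 members with a window, against 2.7% of all genes. Of these 6, ASNS and CEBPG were called and ATF3, CHAC1, SLC3A2 and SLC7A1 were not.

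Genes of fuel use moved as well. ANGPTL4, a secreted inhibitor of lipoprotein lipase induced by PPARs and hypoxia (ENSG00000167772, chr19:8363289-8374373, plus strand), had 40.3, 36.02 and 41.6 CPM at the high dose and 14.1, 12.5 and 14.1 CPM at the low dose (1.54 ± 0.09, adjusted p = 2.6e-11). The medium dose, at 17.4 CPM, lay above the low dose (0.36 ± 0.09, adjusted p = 0.12, not called), and the upper step gave 1.18 ± 0.08 (adjusted p = 3.8e-09). The vehicle mean was 17.5 CPM. The PPAR list had 5 of 11 called higher and none lower (median 0.21), against 4.83% and 5.68% of all genes. PDK4, the kinase that shuts off pyruvate dehydrogenase, had 3.502, 4.57 and 3.25 CPM at the high dose and 1.596, 2.34 and 1.89 CPM at the low dose (0.96 ± 0.18, adjusted p = 0.00093). PLIN2, which coats lipid droplets, had 92.3, 86.2 and 96.1 CPM at the high dose, against 66.9, 66.6 and 66.7 CPM at the low dose (0.46 ± 0.05, adjusted p = 6.5e-07). CPT1A (0.21 ± 0.05, adjusted p = 0.0052) and ACADVL (0.18 ± 0.03, adjusted p = 0.00038), of mitochondrial fatty acid oxidation, completed the called members.

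TXNIP, an arrestin that limits glucose uptake, is switched on by MondoA when sugar phosphates build up (ENSG00000265972, chr1:145992435-145996600, minus strand). It had 33.5, 30.4 and 33.9 CPM at the high dose and 14.9, 16.8 and 12.9 CPM at the low dose (1.13 ± 0.08, adjusted p = 1e-09). The vehicle mean was 8.77 CPM and the medium-dose mean 19.4 CPM, an order that ran upward with dose. The step of TXNIP from low to medium dose was not called by edgeR. ARRDC4, its relative and the other MondoA target called, rose less (0.42 ± 0.11, adjusted p = 0.015) and lost its call without replicate 1 of the high dose or replicate 3 of the low dose. Those were 2 of 6 tested members, and none fell, against 4.83% higher and 5.68% lower among all genes. The hypoxia and glycolysis list had 7 of 20 called higher and none lower, against the same shares, with a median of 0.04. NDRG1, a hypoxia-induced gene, had 70.3, 70.4 and 70.1 CPM at the high dose and 40.3, 41.9 and 43.4 CPM at the low dose (0.75 ± 0.04, adjusted p = 1.8e-11). VEGFA, the angiogenic growth factor, had 468, 459 and 430.0 CPM at the high dose, against 334, 319 and 319 CPM at the low dose (0.48 ± 0.04, adjusted p = 3.4e-08). Neither gene overlapped between doses. ALDOC, a glycolytic aldolase of brain, rose by 0.64 ± 0.08 (adjusted p = 1.9e-05), SLC2A3, a glucose transporter, by 0.24 ± 0.05 (adjusted p = 0.0021) and HK2, a hexokinase, by 0.23 ± 0.05 (adjusted p = 0.005).

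Genes of 3 signalling lists rose, the cytokines among them from low levels. These lists are read against 4.83% higher and 5.68% lower among all genes. In the NF-kB list 4 of 17 were called higher and none lower (median 0.21). IL1B, the pro-inflammatory interleukin, had 6.86, 6.78 and 6.13 CPM at the high dose and 3.27, 3.29 and 3.56 CPM at the low dose (0.97 ± 0.12, adjusted p = 5.9e-06). CXCL8, the neutrophil chemokine IL-8, had 5.46, 4.92 and 5.61 CPM at the high dose and 3.04, 3.41 and 2.36 CPM at the low dose (0.86 ± 0.16, adjusted p = 0.00095), but its vehicle mean was 5.05 CPM, at the high-dose level. LIF, a cytokine of the IL-6 family, showed the same order, 27.7 CPM at the high dose, 19.3 CPM at the low dose and 26.8 CPM in the vehicle (0.52 ± 0.08, adjusted p = 0.00015 between doses). IL6 also passed (0.41 ± 0.13, adjusted p = 0.04), but lost its call whichever of the 6 libraries was left out. In the MAPK list 7 of 19 were called higher and none lower (median 0.20). DUSP6, the phosphatase that limits ERK, had 31.8, 34.4 and 34.1 CPM at the high dose, against 22.8, 23.2 and 23.9 CPM at the low dose (0.52 ± 0.06, adjusted p = 2.5e-06). DUSP4 (0.20 ± 0.05), ETV4 (0.41 ± 0.09), ETV5 (0.18 ± 0.04) and PHLDA1 (0.22 ± 0.04), further outputs of ERK signalling, passed with adjusted p-values of 0.0045, 0.0025, 0.0035 and 0.001. KLF9, a transcription factor that glucocorticoids and oxidative stress induce, had 105, 113 and 107 CPM at the high dose and 73.7, 70.5 and 73.0 CPM at the low dose (0.58 ± 0.04, adjusted p = 1.8e-09). The glucocorticoid list had 4 of 7 called higher and none lower, a count that fell to 1 without replicate 3 of either dose and to 2 without replicate 1 or replicate 2 of the high dose. NR3C1, the receptor itself (0.14 ± 0.04), SGK1 (0.17 ± 0.04) and DUSP1 (0.19 ± 0.06) were the members that lost their calls in some of these fits.

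Contractile genes and targets of TGF-beta and YAP fell. Of 15 tested, 10 were called lower and none higher (median -0.25), against 5.68% lower among all genes, and 9 were lower without replicate 1 of the low dose. ACTA2, smooth muscle actin, had 48.4, 43.2 and 48.9 CPM at the high dose and 67.5, 76.6 and 68.4 CPM at the low dose (-0.60 ± 0.06, adjusted p = 6.5e-07). ANKRD1, a YAP target, had 6.26, 6.08 and 6.65 CPM at the high dose, against 10.1, 9.79 and 11.1 CPM at the low dose (-0.70 ± 0.10, adjusted p = 4.5e-05). Both genes were above the low-dose level in the vehicle, with means of 85.0 and 12.8 CPM. CTGF (-0.45 ± 0.08, adjusted p = 0.00042) and CYR61 (-0.40 ± 0.06, adjusted p = 0.00013), matricellular proteins that YAP induces, and TPM1 (-0.30 ± 0.03, adjusted p = 1.2e-06), a tropomyosin, fell too. Matrix genes went the same way by smaller steps: 10 of 27 were called lower and 2 higher (median -0.05), and 5 were lower without replicate 1 of the high dose. COL1A2, a chain of type I collagen, had 1778, 1893 and 1856 CPM at the high dose and 2322, 2150.3 and 2393 CPM at the low dose (-0.31 ± 0.04, adjusted p = 1e-05). COL3A1 (-0.34 ± 0.07), TNC (-0.19 ± 0.04) and POSTN (-0.22 ± 0.04), matrix proteins of wounds and tumours, fell as well, with adjusted p-values of 0.0019, 0.0019 and 0.00078. The pair that rose were the collagenases MMP14 (0.28 ± 0.04, adjusted p = 1.3e-05) and MMP1 (0.25 ± 0.06, adjusted p = 0.005, chosen after its values were seen).

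Wnt feedback genes fell in 4 of 8 cases, and none rose (median -0.28), against 5.68% lower and 4.83% higher among all genes. LGR6, a receptor for R-spondins, which strengthen Wnt signals (ENSG00000133067, chr1:202193901-202319781, plus strand), had the largest fall of the genes named by rule. It had 2.57, 3.32 and 2.74 CPM at the high dose and 7.16, 8.56 and 9.96 CPM at the low dose, a fold of 2.98 between low and high (-1.57 ± 0.16, adjusted p = 2.8e-07). The step to the medium dose, with a mean of 6.36 CPM, gave -0.42 ± 0.13 (adjusted p = 0.21, not called) and the upper step -1.15 ± 0.16 (adjusted p = 0.0001). The vehicle mean was 6.74 CPM. AXIN2 (-0.39 ± 0.09, adjusted p = 0.0059), the canonical Wnt feedback gene, TCF7 (-0.30 ± 0.06, adjusted p = 0.0015), a Wnt transcription factor, and DKK1 (-0.26 ± 0.05, adjusted p = 0.0008), a secreted Wnt inhibitor, fell by less.

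Some cytosolic heat shock genes fell. The lists of this paragraph are read against 5.68% lower and 4.83% higher among all genes. Of 14 heat shock genes tested, 6 were called lower and none higher (median -0.17), and 7 were lower without replicate 1 of the low dose. HSPA8, the constitutive HSP70, had 1082, 1067 and 1138 CPM at the high dose and 1329.9, 1354 and 1303 CPM at the low dose (-0.28 ± 0.04, adjusted p = 0.00021). DNAJB1 (-0.24 ± 0.05), DNAJA1 (-0.23 ± 0.04), HSPH1 (-0.19 ± 0.04) and HSP90AB1 (-0.14 ± 0.02) followed, with adjusted p-values of 0.00099, 0.00048, 0.0033 and 0.00048. HSPD1, a mitochondrial chaperone held in this list, was the other that fell (-0.18 ± 0.04, adjusted p = 0.0051, chosen after its values were seen). Lipid synthesis genes fell by amounts of the same order. In the fatty acid list 6 of 12 were called lower and none higher (median -0.12, 5 without replicate 1 of the low dose), led by SCD, the stearoyl-CoA desaturase, with 199, 223 and 204 CPM at the high dose and 249, 253 and 273 CPM at the low dose (-0.31 ± 0.04, adjusted p = 1.1e-05). SREBF1, the factor that drives this pathway, had 40.9, 46.9 and 49.8 CPM at the high dose, against 54.2, 58.9 and 66.8 CPM at the low dose (-0.39 ± 0.08, adjusted p = 0.0015). In both genes all 3 high-dose libraries lay below the low-dose libraries. ACLY (-0.13 ± 0.03, adjusted p = 0.0031), ACACA (-0.15 ± 0.04, adjusted p = 0.009) and ELOVL5 (-0.12 ± 0.03, adjusted p = 0.031), which make cytosolic acetyl-CoA, malonyl-CoA and longer unsaturated chains, fell by less, and ACACA and ELOVL5 lost their calls without single libraries. In the cholesterol list 6 of 25 were called lower and none higher (median -0.09), and 3 without replicate 1 of the low dose. LSS (-0.27 ± 0.04, adjusted p = 0.00012) and HMGCS1 (-0.23 ± 0.04, adjusted p = 0.00099), enzymes of sterol synthesis, were among them, as was PMVK (-0.28 ± 0.08, adjusted p = 0.034), which lost its call without single libraries. None of the 9 called lipid members with a window, 4 of the cholesterol and 5 of the fatty acid list, held the sterol regulatory element TCACNCCAC, which stood in 1.46% of all tested genes.

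Growth and turnover genes moved little and their counts depended on single libraries. Among all genes 4.83% were called higher and 5.68% lower. Of 22 proteasome genes 8 were called lower and none higher (median -0.13), but 1 without replicate 1 of the low dose or replicate 2 of the high dose, and 3 without replicate 1 of the high dose or replicate 2 of the low dose. Library totals in place of TMM also left 3. POMP, the assembly factor, changed by -0.23 ± 0.06, and PSMA2, PSMA6, PSMB6 and PSMC1, subunits of the complex, by -0.29 ± 0.08, -0.15 ± 0.04, -0.15 ± 0.05 and -0.17 ± 0.05. Of 23 DNA replication genes 6 were called lower and none higher (median -0.10), and 3 without replicate 1 of either dose, without replicate 2 of the low dose or with library totals. MCM7 (-0.12 ± 0.03, adjusted p = 0.01) and MCM6 (-0.17 ± 0.05, adjusted p = 0.027) of the replicative helicase and PCNA, the polymerase clamp (-0.16 ± 0.04, adjusted p = 0.024), were among them, and MCM6 and PCNA lost their calls without single libraries. UHRF1, which maintains DNA methylation through division, passed with the smallest p of these, with 66.3, 69.1 and 67.4 CPM at the high dose and 82.7, 78.9 and 83.0 CPM at the low dose (-0.27 ± 0.04, adjusted p = 7.4e-05). Of 20 mitotic genes 2 were called lower, CCNB1 (-0.16 ± 0.04) and CDC20 (-0.13 ± 0.04), and none was called without replicate 2 of either dose. So few calls are no result about the mitotic list. Among 18 p53 targets 3 rose and 1 fell, with CDKN1A, the cell cycle inhibitor p21, at 36.3, 37.3 and 39.1 CPM in high-dose and 28.9, 30.6 and 30.8 CPM in low-dose libraries (0.32 ± 0.07, adjusted p = 0.0025). The death receptor TNFRSF10B (0.21 ± 0.04, adjusted p = 0.0007) rose, and the death receptor FAS fell (-0.25 ± 0.06, adjusted p = 0.01). The repair factor DDB2 passed (0.21 ± 0.07, adjusted p = 0.042), but lost its call under 11 of 15 alternatives, DESeq2 and 5 of the 6 fits without a library among them. Of 13 mitochondrially encoded respiratory chain genes none was called by edgeR or DESeq2, and 1 had an unadjusted p under 0.05. Under the alternatives up to 4 of these genes were called higher and none lower.

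The remaining lists are read against 4.83% higher and 5.68% lower among all genes, a share near which 1 or 2 calls in a list are no result about it. Of 21 lysosome genes 5 were higher and none lower, 3 without replicate 1 of the high dose or replicate 3 of the low dose. NPC1, the cholesterol exporter of lysosomes, had 244, 249 and 244 CPM at the high dose and 191, 194 and 195 CPM at the low dose (0.35 ± 0.03, adjusted p = 3.7e-08), and SQSTM1, the autophagy receptor p62, also rose (0.23 ± 0.04, adjusted p = 0.00023). The autophagy protein WIPI1 (0.27 ± 0.06, adjusted p = 0.0036) and the protease CTSL (0.18 ± 0.04, adjusted p = 0.012) passed too. The galactosidase GLA (0.14 ± 0.04, adjusted p = 0.047) lost its call under 13 of 15 alternatives, every fit without a library among them. Of 11 drug metabolism and export genes 3 were higher, among them the efflux pumps ABCG2 (0.28 ± 0.05, adjusted p = 0.0015) and ABCC3 (0.25 ± 0.05, adjusted p = 0.0026). Of 5 metallothionein-list genes 2 were lower, MT1E (-0.73 ± 0.12, adjusted p = 0.00022; reads shared with its near-identical relatives make it uncertain) and the zinc exporter SLC30A1 (-0.22 ± 0.05, adjusted p = 0.0034). Of 18 interferon genes 2 were lower, IFI44L (-0.34 ± 0.05, adjusted p = 4.5e-05) and IFIT1 (-0.34 ± 0.10, adjusted p = 0.03). Of 12 BMP and Notch genes 1 rose, GREM1 (0.29 ± 0.08), and 1 fell, BMP4 (-0.46 ± 0.11); these and IFIT1 lost their calls without single libraries. Of 6 oestrogen targets and receptors 1 rose, CA12 (0.28 ± 0.06, adjusted p = 0.002), of 6 sodium pump genes 1 fell, ATP1B1 (-0.18 ± 0.04, adjusted p = 0.0068), and of 8 LXR genes 1 fell, ABCA1 (-0.17 ± 0.04, adjusted p = 0.017), which lost its call without single libraries.

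Many of the other genes with the largest changes had low counts. THBD, thrombomodulin, had 11.4, 12.4 and 11.0 CPM at the high dose and 5.53, 6.38 and 6.01 CPM at the low dose (0.96 ± 0.09, adjusted p = 9.8e-08). SEMA6D, a semaphorin, had 3.46, 3.67 and 3.77 CPM at the high dose, against 2.18, 1.73 and 1.76 CPM at the low dose (0.94 ± 0.15, adjusted p = 0.00013). CACNG7 (0.84 ± 0.13), a calcium channel subunit, rose as well. The histone gene HIST2H2AA4 (1.57 ± 0.38) and UGT1A1 (1.06 ± 0.29), which share sequence with near-identical copies or exons, and AK8 (0.99 ± 0.27) were also among the 15 largest rises and lost their calls without single libraries. Among the falls, PADI2, which converts protein arginine to citrulline, had 6.91, 8.39 and 7.97 CPM at the high dose and 14.2, 15.5 and 16.8 CPM at the low dose (-0.999 ± 0.08, adjusted p = 6.1e-09). DDIT4L, a relative of DDIT4, had 6.86, 8.24 and 8.07 CPM at the high dose, against 15.7, 14.0 and 13.8 CPM at the low dose (-0.91 ± 0.09, adjusted p = 1.4e-07), the opposite direction to DDIT4. NEFL, a neurofilament chain, had 2.94, 2.71 and 3.07 CPM at the high dose and 6.93, 5.35 and 4.93 CPM at the low dose (-0.98 ± 0.14, adjusted p = 4.5e-05). GABRQ (-0.89 ± 0.15), a GABA receptor subunit, CDH10 (-0.998 ± 0.23), a cadherin, and BAIAP2L2 (-0.95 ± 0.22) fell too. SOX18, EDN1, VSNL1, CA3, GFRA2 and LGALS9 fell by 0.86 to 1.24 but lost their calls without 1 library or another, as did GOLGA8G and the read-through gene SYS1-DBNDD2, whose reads are shared with other loci.

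Summed markers of other cell types ranged from 3.58 to 191 CPM in the high-dose and low-dose libraries. Summed over the 9 neuron markers, high-dose libraries held 172 to 179 CPM and low-dose libraries 185 to 191 CPM. Of 5 tested 2 fell, MAP2 (-0.84 ± 0.10, adjusted p = 3.1e-06) and SYT1 (-0.27 ± 0.06, adjusted p = 0.0028), against 5.68% lower among all genes. The other tested neuron markers were not called. SNAP25 was higher at the high dose (mean 37.3 against 34.8 CPM), and TUBB3 (107 against 111 CPM) and GAD1 (0.72 against 0.88 CPM) were lower. The 9 microglia and leukocyte markers summed to 11.7 to 14.2 CPM at the high dose and 17.6 to 18.7 CPM at the low dose. PTPRC, a leukocyte phosphatase that held the largest part of that sum, had 8.87, 7.13 and 6.98 CPM at the high dose and 13.3, 13.2 and 12.1 CPM at the low dose (-0.75 ± 0.10, adjusted p = 2.2e-05), while AIF1 and TYROBP were at 0. Of the 12 astrocyte markers, with sums of 6794 to 7097 CPM at the high dose and 6861 to 7466 CPM at the low dose, 7 were tested and SLC1A3 (-0.31 ± 0.06, adjusted p = 0.0012) and VIM (-0.17 ± 0.05, adjusted p = 0.023) fell, VIM losing its call without single libraries. The other tested astrocyte markers were not called. CD44 (mean 2881 against 2728 CPM) and GJA1 (221 against 215 CPM) were higher at the high dose, and SOX9, NES and SLC1A2 were lower. Oligodendrocyte sums were 7.42 to 7.89 CPM at the high dose and 6.25 to 6.93 CPM at the low dose, endothelial sums 24.9 to 27.6 and 27.3 to 28.99 CPM, and epithelial sums 3.78 to 4.29 and 3.58 to 3.87 CPM, with no call by edgeR or DESeq2 in any of the 3 lists and 1 gene at an unadjusted p under 0.05. All libraries are of the SW1783 line, so a lower marker is not read here as a loss of another cell type. Bulk libraries do not tell a fall in all cells from a fall in some of them. The part of these levels in the results above was not tested.

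Few genes separated the medium from the low dose. Between 100 and 20 µg/mL 28 genes passed (0.168%), 14 higher and 14 lower (0.0842% each), with 1740 at an unadjusted p under 0.05. That count was unsteady: 128 passed without replicate 1 of the medium dose, 8 without its replicate 2, 16 without its replicate 3, 11 and 17 without replicates 1 and 2 of the low dose, and 113 with DESeq2. Between 500 and 100 µg/mL 565 genes passed (3.40%), 270 higher (1.62%) and 295 lower (1.77%). Both comparisons share libraries with the main one, so their values are set side by side here. HMOX1 was 1.05 ± 0.05 higher at the medium than at the low dose (adjusted p = 8.4e-12) and 0.85 ± 0.05 higher at the high than at the medium dose (adjusted p = 3.9e-10). CYP1B1 rose by 0.43 ± 0.03 in the lower step (adjusted p = 2.7e-08) and 0.29 ± 0.03 in the upper step (adjusted p = 7.1e-06), and NDRG1 by 0.43 ± 0.04 and 0.31 ± 0.04 (adjusted p = 1.4e-06 and 2.5e-05). ANKRD1 (-0.51 ± 0.09, adjusted p = 0.02), CYR61 (-0.32 ± 0.06, adjusted p = 0.021) and DKK1 (-0.25 ± 0.05, adjusted p = 0.021) fell in the lower step, and in the upper step their changes were -0.19 ± 0.10, -0.07 ± 0.06 and -0.01 ± 0.05, none called. ASNS gave 0.06 ± 0.04 in the lower step (adjusted p = 0.68) and 0.40 ± 0.04 in the upper (adjusted p = 3.7e-06), and HERPUD1 gave 0.05 ± 0.05 (adjusted p = 0.81) and 0.44 ± 0.05 (adjusted p = 1e-05). By list, the ER chaperones had no called member in the lower step (edgeR and DESeq2, with 2 at an unadjusted p under 0.05) and 6 of 20 higher in the upper, the ATF4 list 1 and 12 of 25, the NRF2 list 1 and 14 of 24, and the AhR list 3 and 5 of 8.

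Low dose and vehicle differed in 3505 genes (21.1%), 1607 higher (9.67%) and 1898 lower (11.4%) at the low dose, more than between the doses. Since the vehicle carries another set label, set and dose cannot be told apart in these counts. HMOX1 had 127, 127 and 142 CPM at the low dose and 58.5, 61.0 and 57.7 CPM in the vehicle (1.16 ± 0.06, adjusted p = 6.7e-12). TXNIP averaged 14.9 CPM at the low dose and 8.77 CPM in the vehicle (0.77 ± 0.10, adjusted p = 1.6e-05), while ASNS averaged 50.1 CPM and 49.1 CPM (0.03 ± 0.05, adjusted p = 0.68).

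The same step in dose was made with Citri Unshius Pericarpium, the peel of a mandarin, in the same set. Citri changed 2286 genes (13.7%), 1054 higher (6.34%) and 1232 lower (7.41%) at its high dose. The test of the difference, Cimicifugae dose effect minus Citri dose effect, called 121 genes (0.728%), 87 with a higher value in Cimicifugae (0.523%) and 34 with a lower one (0.204%). HMOX1 gave the largest positive difference of the genes named by rule, with 1.90 ± 0.05 in Cimicifugae and 0.07 ± 0.06 in Citri (difference 1.83 ± 0.08, adjusted p = 2.5e-13). TXNIP gave the largest negative one, with 1.13 ± 0.08 in Cimicifugae and 3.68 ± 0.08 in Citri (difference -2.55 ± 0.11, adjusted p = 3.4e-13). In CPM, TXNIP reached 32.6 at the high dose of Cimicifugae and 134 at the high dose of Citri. ARRDC4 differed in the same direction as TXNIP (-1.14 ± 0.15, adjusted p = 0.00015), as did SERPINB3, a serpin that shares reads with SERPINB4 (-0.82 ± 0.16, adjusted p = 0.0082). THBD rose in Cimicifugae (0.96 ± 0.09) and gave 0.01 ± 0.10 in Citri (difference 0.94 ± 0.13, adjusted p = 0.00027).

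**Figure D3:**
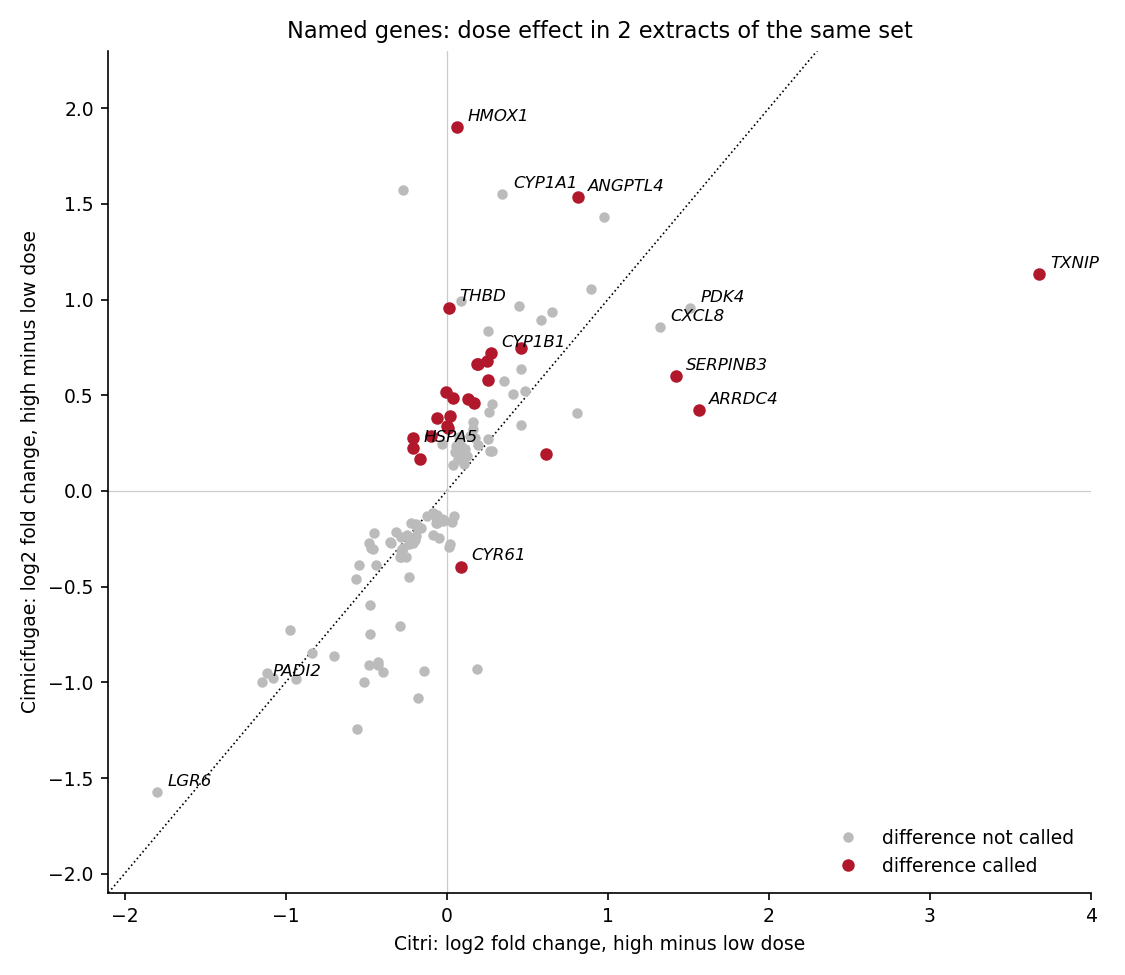
Each point is 1 of the 132 genes named by rule, placed by its log2 fold change, high minus low dose, in Citri (horizontal) and in Cimicifugae (vertical); red points are genes whose difference between extracts was called, and the dotted line marks equal effects. HMOX1 lies far above the line, TXNIP, ARRDC4 and SERPINB3 below it, and LGR6 and PADI2 near it.

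ER chaperone genes differed between the extracts in 12 of 20 members, all with a higher value in Cimicifugae, against 0.523% of all genes. Cimicifugae had 13 of 20 called higher and none lower, and Citri none higher and 9 lower. HSPA5 had 2943, 3179 and 2963 CPM at the high dose of Citri and 3481, 3534 and 3504 CPM at its low dose (-0.21 ± 0.03, adjusted p = 7.3e-05), the reverse of its direction in Cimicifugae (difference 0.43 ± 0.05, adjusted p = 5.8e-06). HERPUD1 (0.44 ± 0.07, adjusted p = 0.0019), HYOU1 (0.33 ± 0.05, adjusted p = 0.00021) and MANF (0.38 ± 0.07, adjusted p = 0.0035) differed as well. Differences were called in 6 of 25 ATF4 genes, 4 of 24 NRF2 genes and 4 of 8 AhR genes, all with a higher value in Cimicifugae. Citri itself had 8 of 24 NRF2 genes and 4 of 8 AhR genes called higher and none lower, against 6.34% and 7.41% of all genes. Its ATF4 list had 4 higher and 3 lower, and its contractile list 7 of 15 lower and none higher. The heat shock, fatty acid, cholesterol, matrix and Wnt lists had no called difference in edgeR, which does not show that the extracts act alike. At an unadjusted p under 0.05 the counts were 4, 4, 4, 4 and 2, and DESeq2 called 1 matrix gene and none in the other lists. LGR6, for example, gave -1.57 ± 0.16 in Cimicifugae and -1.80 ± 0.16 in Citri (difference 0.22 ± 0.23, adjusted p = 0.78). HSPA8 gave -0.28 ± 0.04 in Cimicifugae and -0.23 ± 0.04 in Citri (difference -0.05 ± 0.06, adjusted p = 0.85). In the mitotic list Citri had 10 of 20 called higher, and 2 members differed, both with a lower value in Cimicifugae.

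**Figure D4:**
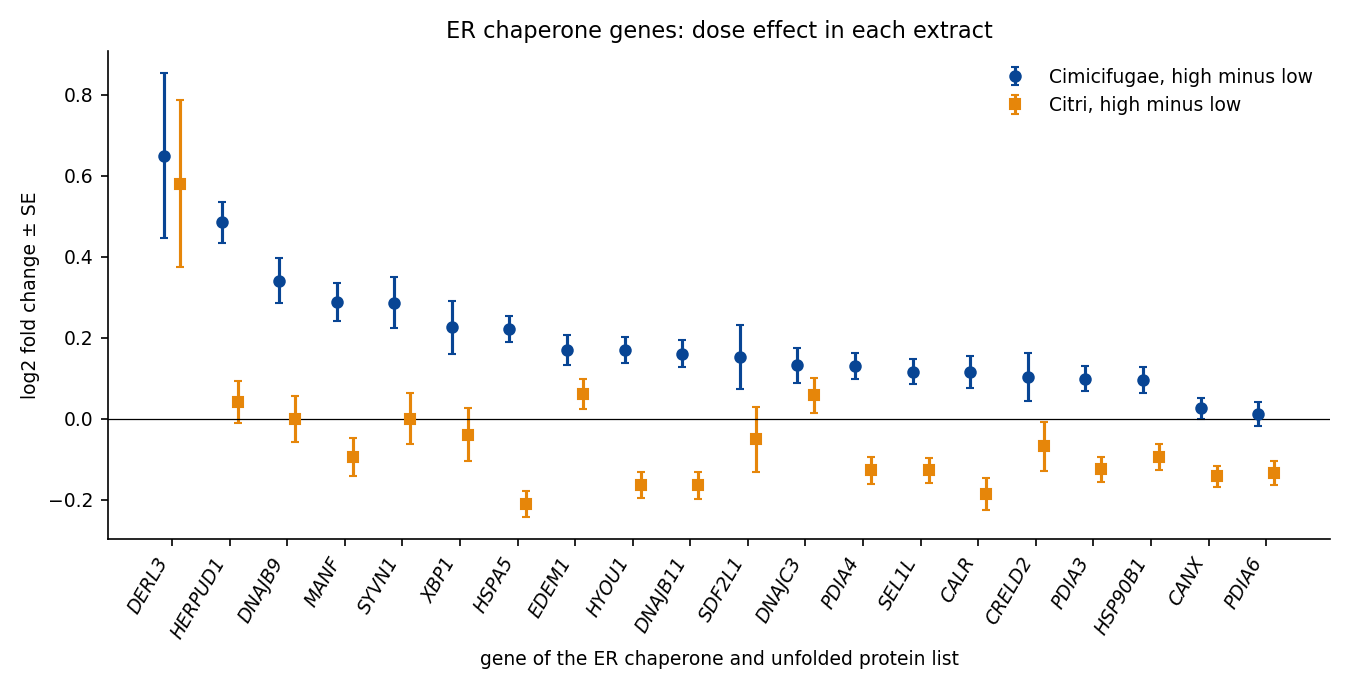
Log2 fold change, high minus low dose, with its standard error, for the 20 tested genes of the ER chaperone and unfolded protein list in Cimicifugae (blue circles) and in Citri (orange squares). All 20 Cimicifugae values lie above 0, and 15 of the 20 Citri values lie below it.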

How the data were processed

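Total RNA of SW1783 cells (RIN above 7, per the labels' protocols) was made into strand-marked mRNA libraries (MGIEasy) and sequenced as 100-base pairs. The authors deposited RSEM expected counts per gene (60675 genes, 60 libraries; GRCh38/hg38), whose processing notes by the submitters name RSEM 1.3.3, STAR 2.7.3a, Trim Galore 0.6.5 and FastQC 0.11.9. The annotation and strand setting were not given in the sources used here, so reads of overlapping genes may be mixed. Of the values 9.18% were not whole, and all were rounded here. The main fit was the quasi-likelihood test of edgeR 4.0.16 (R 4.3.3) on 21 libraries of 7 groups, with TMM scaling, the default filter (minimum count 10), Benjamini-Hochberg adjustment over 16626 genes and a threshold of 0.05. CPM values use TMM-scaled library sizes, and a standard error is the log2 fold change over the root of its F value. The precision of a value follows from the counts per library, 15996157 to 30653513 in the groups used, and from the spread between libraries. The main fit did not pair samples by replicate number. Correlations of same-numbered high-dose and low-dose deviations were 0.288, 0.0459 and 0.303. Those of differently numbered libraries ran from -0.286 to 0.0239. Whether the numbers mark paired cultures was not tested, and a fit with a replicate block gave 2151 calls between high and low dose. On simulated counts for these genes the fit called 95.6% of genes set to a 4-fold change and 61.2% at 1.25-fold, and 6.19% of its calls were false. Each of 5 simulations changed 200 genes and drew the libraries independently, with none standing apart. These shares therefore need not hold for the real calls.

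The members and the 35 gene lists were chosen with earlier results of these data known, so lists are described by counts and medians without a test. Genes are named by rule: the 15 largest called rises and falls among protein-coding genes whose libraries do not overlap and whose higher mean is at least 1 CPM, up to 5 called members of each list with the smallest p, and the 3 largest differences from Citri each way. Any others were chosen after their values were seen. Gene coordinates are those of GENCODE v29 (57055 of the IDs matched), and promoters come from RefSeq. Alternatives were DESeq2 1.42.0, other scalings, filters, sample sets and a replicate block. A few genes that the rule selects are not reported here.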

Additional observations from a re-analysis of the deposited data

Results flagged for a closer look

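For 26 of the 132 genes named by rule the dose effect of Cimicifugae differed from that of Citri in the test of the difference itself, 21 with a higher and 5 with a lower value in Cimicifugae. Values are differences of log2 fold changes (edgeR, adjusted p under the threshold for each). HMOX1 differed by 1.83, THBD by 0.94 and ANGPTL4 by 0.72. Of the cytokine, transport and AhR genes, LIF differed by 0.52, ABCG2 by 0.48, SLC7A11 by 0.47, TIPARP by 0.47, CYP1B1 by 0.44, AHRR by 0.44 and NQO1 by 0.43. Of the ER genes, HERPUD1 differed by 0.44, HSPA5 by 0.43, MANF by 0.38, DNAJB9 by 0.34 and HYOU1 by 0.33. SESN2 differed by 0.37, VEGFA by 0.35, KLF9 by 0.33, SLC7A5 by 0.32, ASNS by 0.29 and NDRG1 by 0.29. The differences were -0.43 for DUSP1, -0.48 for CYR61, -0.82 for SERPINB3, -1.14 for ARRDC4 and -2.55 for TXNIP. HMOX1 and TXNIP kept this call under all 21 alternatives tried, and THBD under the 20 that gave it an adjusted p, since DESeq2 gave none. DNAJB9, ASNS, LIF, SESN2, DUSP1 and NDRG1 lost it when 1 library or another was left out.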

How the results depend on the processing

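No named gene changed direction under an alternative. The medians of 5 lists near 0 changed sign under some: the mitochondrially encoded list ranged from -0.05 to 0.19, the sodium pump list from -0.06 to 0.07, the BMP and Notch list from -0.02 to 0.09, the drug metabolism list from -0.006 to 0.03 and the epithelial list from -0.14 to 0.16. With library totals the majority of calls turned from lower to higher between high and low dose (997 higher, 744 lower), between high and medium dose (322 and 261) and between low dose and vehicle (1825 and 1581). Without the filter it turned to higher between low dose and vehicle (1819 and 1561) and to lower in the difference from Citri. The 57-library fit turned it to higher between low dose and vehicle (97 and 42) and between high and medium dose (9 and 7). The comparison of high and low dose gave 1529 calls with DESeq2, 1756 with RLE scaling, 1741 with library totals, 1925 without the filter (751 higher and 1174 lower), 1281 with only those 6 libraries, 2151 with a replicate block, and 1100 to 1585 with 1 library left out. The 57-library fit gave 109, 1, 16, 139 and 4 calls for high against low, medium against low, high against medium, low against vehicle and the difference from Citri. The 55-library fit, added after the data were seen, gave 1843, 70, 624, 3661 and 174. Medium against low was the least steady: 261 without the filter, 113 with DESeq2, 3 with only the groups compared, 95 with the block, and 8 to 128 with 1 library left out. High against medium gave 307 with only the groups compared, 731 with the block and 336 to 510 with 1 library left out. Low against vehicle ranged from 2372 to 3838 with 1 library left out; the vehicle belongs to another set and was not in the block fit. The difference from Citri gave 361 without the filter (176 above and 185 below), 210 with the block and 76 to 119 with 1 library left out. Each high-dose and low-dose library correlated best with its own number, a hint from the data and not from the design. Of the 132 named genes 33 were called in the 57-library fit, which left 3 NRF2, 4 AhR, 1 ATF4 and 1 ER gene higher and 5 contractile genes lower, and HMOX1, CYP1B1, NQO1, ANGPTL4, TXNIP, HERPUD1, ACTA2, LGR6 and PADI2 were among those called under each of the 15 alternatives. CYP1A1 and ALDH3A1 were called under the 14 that gave them an adjusted p, since DESeq2 gave none. Genes under about 1 CPM were filtered out, so changes there were not detectable at this depth.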

Other observations

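Some of the clearest changes lay outside the lists and were chosen after their values were seen. Of the 12 genes with the smallest p not named by rule, 4 were higher and 8 lower. ALDH1A3, which makes retinoic acid, had 934, 907 and 899 CPM at the high dose and 638, 603 and 572 CPM at the low dose (0.60 ± 0.04, edgeR adjusted p = 1.6e-10). KRT18, a keratin of simple epithelia, had 111, 106 and 108 CPM at the high dose and 185, 169 and 177 CPM at the low dose (-0.71 ± 0.04, adjusted p = 2.6e-11). Neither gene overlapped between doses. ALAS1, the first enzyme of haem synthesis, rose by 0.49 ± 0.04 (adjusted p = 4.2e-08), IGFBP3, which binds insulin-like growth factors, by 0.40 ± 0.04 (adjusted p = 6.7e-08) and ITGA2, a collagen-binding integrin, by 0.48 ± 0.04 (adjusted p = 1.1e-07). SELENOW, a small selenoprotein, had 44.2, 46.9 and 47.3 CPM at the high dose and 72.7, 70.5 and 72.6 CPM at the low dose (-0.64 ± 0.04, adjusted p = 8.1e-11), and gave 0.01 ± 0.04 in Citri (difference -0.65 ± 0.05, adjusted p = 1.3e-07). FAM13B (-0.79 ± 0.05), TNFRSF19 (-0.72 ± 0.05), EPHA3 (-0.66 ± 0.05), MEST (-0.52 ± 0.03), ACTG1 (-0.49 ± 0.04, with processed pseudogenes that make it uncertain) and NREP (-0.44 ± 0.03) fell.

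A pair of gene groups was looked up after these values were seen. Of 15 tested haem and iron genes 4 were higher and none lower, against 4.83% and 5.68% of all genes, but HMOX1 and ALAS1 were the genes that prompted the choice. The others were the haem transporter SLC48A1 (0.55 ± 0.06, adjusted p = 4.2e-07) and FECH, which inserts the iron (0.27 ± 0.05, adjusted p = 0.00048). Of 9 tested retinoid genes 3 were higher, ALDH1A3, which prompted the choice, the retinoic acid hydroxylase CYP26B1 (0.26 ± 0.05, adjusted p = 0.0022) and the retinal reductase DHRS3 (0.21 ± 0.06, adjusted p = 0.033), and 1 was lower, the retinoic acid carrier CRABP2 (-0.80 ± 0.12, adjusted p = 6e-05). DHRS3 differed from its dose effect in Citri by 0.71 (adjusted p = 0.00012) and CYP26B1 by 0.63 (adjusted p = 5.7e-05). The larger part of each difference was a fall in Citri. There DHRS3 gave -0.50 ± 0.07 (adjusted p = 1.1e-05) and CYP26B1 -0.37 ± 0.05 (adjusted p = 5.5e-05).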
